A study of Mus musculus with 16 samples.

Results

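The zinc finger genes named Zfp and a number were followed across mouse bone marrow derived macrophages (BMDMs) grown and treated in 8 ways. Genes were chosen by symbol and selected on measured level, where the symbol was Zfp followed by digits only and the mean level over all libraries was 3 CPM or more (counts scaled by library size). Of the 22287 genes in the table, 368 rows carried such a symbol and 239 reached that level. Zfp36 was left out by the rule, since its product tristetraprolin binds mRNA through fingers of another kind, so that 238 genes remained. Just above the threshold lay Zfp870 at 3.20 CPM, Zfp11 at 3.19 CPM and Zfp937 at 3.12 CPM. Zfp873 at 2.97 CPM, Zfp827 at 2.95 CPM and Zfp661 at 2.94 CPM lay just below it. The level was what chose the genes, so levels are given as a description. Zfp91 stood on 2 rows of the table, and only the row at 193 CPM was among the 238.

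Bone marrow came from C57BL/6J mice of 8 weeks. A culture of 7 days followed, in which the growth factor was GM-CSF at 20 ng/ml (called GM) or M-CSF at 50 ng/ml (called M). They grew on dishes treated for adherence (TC) or on untreated dishes (noTC), and then received vehicle or 100 ng/ml LPS for 3 h. Each of the 8 groups is named by growth factor and dish, such as GM-TC or M-noTC, with the ending LPS where it was given, and had 2 libraries. No allele, transgene or knockdown was involved, and all groups share the strain and the week of culture in a growth factor. The labels do not say whether the 2 libraries of a group came from separate mice, so p-values measure the spread between these samples, which may be technical.

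Most proteins of this family carry runs of C2H2 zinc fingers, each a small fold held by a zinc ion that reads a few bases of DNA. Many also carry a KRAB domain, which binds the corepressor KAP1 (Trim28) and through it brings histone deacetylases and H3K9 methyltransferases to the bound site. KRAB zinc finger genes are known as silencers of retroelements and imprinted loci and sit in clusters in the genome, while members without KRAB include activators, corepressor partners, RNA-binding proteins and ubiquitin ligases. LPS acts through TLR4 to switch on cytokine and interferon genes in macrophages.

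Total counts lay between 17527802 and 31458363 per library, so that 3 counts equal 0.0954 to 0.171 CPM. The 8 macrophage markers summed to between 19543 and 45588 CPM and none was at 0 in a group. Heart muscle markers summed to 24.1 to 82.9 CPM in the 4 unstimulated TC libraries and to at most 0.633 CPM elsewhere. Fibroblast markers reached 13.4 CPM, neutrophil markers reached 31 CPM in GM groups and 1.68 CPM in M groups, and markers of B cells, T cells, mast cells and erythroid cells stayed at or below 3.07 CPM. Il6 in the noTC steady state libraries stood at 0.494% to 0.639% of its mean in the 8 LPS libraries, against at most 0.0249% in the TC ones. The lowest library of Zfp395, Zfp469 and Zfp532 lay below 2% of their own mean in the other 15 libraries, and no other member did. The part of these signals in the values below was not tested. The GM-TC pair differed more than any other pair, with a chi-square of 12.9 per degree of freedom against 1.92 to 5.27. RNA came from whole cultures, so fewer cells of a type and less RNA per cell cannot be told apart.

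A coding sequence was found in the GENCODE M21 annotation for 237 of the 238 genes, all but Zfp469. Translation gave at least 1 C2H2 finger in 231 of them, with a median of 11 fingers and at most 36, in Zfp142. The letters of a KRAB A box were found in 112 of them (47.3%), against 1.36% of all 21899 coding genes. Genes with the match had a median of 12 fingers and those without had 8. The pattern was narrow, since 37 of 44 members listed as known KRAB genes matched. By gene order in RefSeq (GRCm38.p6), 118 members lay next to another Zfp gene and 91 in runs of 3 or more, the longest of 15 genes. Of the 238 genes, 165 held whole values in every library and 35 held values that were not whole in 8 or more libraries, where reads shared with related genes were split. Exons of 59 genes overlapped another gene, by over 20% of their bases in 15 genes.

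The highest level belonged to Zfp106, an RNA-binding nuclear protein needed by motor neurons and muscle, with a mean of 292 CPM. It was followed by Zfp91 at 193 CPM, a ubiquitin ligase of the kinase NIK in noncanonical NFkB signaling. Zfp207 (BuGZ), a spindle protein that also affects splicing, came next at 169 CPM. Zfp710 at 152 CPM, Zfp800 at 136 CPM, Zfp871 at 111 CPM and Zfp263 at 98.7 CPM followed. Zfp638 at 80.5 CPM, Zfp445 at 80.1 CPM and Zfp703 at 75.1 CPM closed the first 10. Per kilobase of exon the order changed, with Zfp207 at 36, Zfp91 at 34.9, Zfp106 at 30.8, Zfp800 at 28.7 and Zfp263 at 28.1 mean CPM per kb. An antisense gene overlapped 28.8% of the exon bases of Zfp106, and Zfp91 and Zfp638 held values that were not whole in most libraries, so their levels are uncertain. Of the 238 genes, 116 lay between 3 and 10 CPM, 83 between 10 and 30 CPM and 39 at 30 CPM or more.

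The question of the LPS comparisons was how the transcriptome of each kind of BMDM changed upon challenge. Scaled by library size, the summed level of the 238 genes went in GM-TC from 5398 and 4810 CPM to 3690 and 3663 CPM upon LPS challenge. GM-noTC went from 5158 and 5198 CPM to 3652 and 3611 CPM. M-TC went from 6737 and 6667 CPM to 3798 and 3897 CPM. M-noTC went from 6244 and 6198 CPM to 3844 and 3815 CPM. Each LPS library thus lay below each steady state library, while the M libraries lay above the GM libraries at steady state and close to them after LPS. With 2 libraries a group, an exact two-sided permutation test cannot go below p = 0.333, so these sums carry no test. TMM scaling removed the fall of the sum, since the TMM factors were 1.11 to 1.39 at steady state and 0.778 to 0.842 after LPS. The TMM scaled sums lay between 4339 and 5012 CPM, at 4852 and 4792 CPM in M-TC and at 4809 and 5012 CPM in M-TC-LPS.

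**Figure D1:**
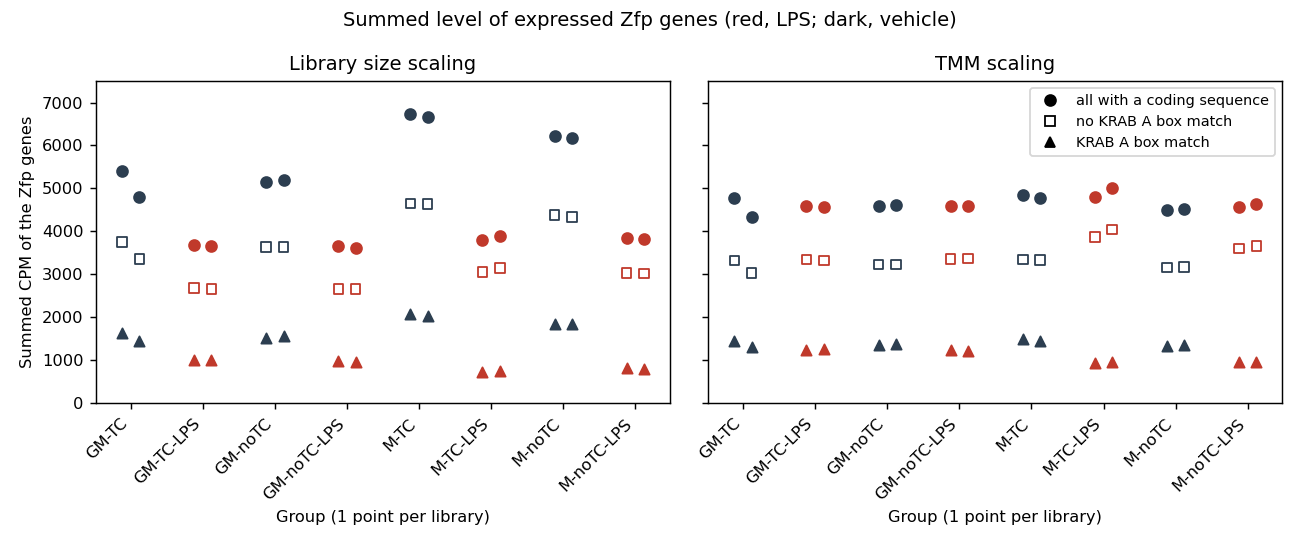
Summed CPM of the Zfp genes with a coding sequence (circles), of those without a KRAB A box match (open squares) and of those with it (triangles), 1 point per library for the 8 groups, with library size scaling on the left and TMM scaling on the right. The total fell with LPS on the left (from 6737 and 6667 CPM to 3798 and 3897 CPM in M-TC with all 238 genes) and not on the right. The KRAB sum was lower after LPS in GM and in M on both sides. On the right it went from 1447 and 1311 CPM to 1246 and 1253 CPM in GM-TC, and from 1493 and 1454 CPM to 933 and 963 CPM in M-TC.

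The balance within the family did not depend on the scaling. Genes with a KRAB A box match held 30.3% and 30.2% of the summed level of the family in GM-TC, while their share was 30.8% and 30.3% in M-TC. After LPS the GM libraries stood at 27.1% and 27.4% on TC and at 27.0% and 26.5% on noTC. The M libraries then stood at 19.4% and 19.2% on TC and at 21.2% and 20.9% on noTC, below every other library. The 10 genes of highest mean level held 24.8% to 27.7% of the summed level in all GM libraries and in M at steady state. Their share was 39.5% to 41.2% in M after LPS. These 10 were chosen on a mean over all libraries, with those of M after LPS among them. By their steady state means Zfp800 and Zfp263, which rose with LPS, would not be among the 10. Part of this higher share thus comes from how the genes were chosen, and the shares are a description.

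Gene by gene, more Zfp genes fell than rose in all 4 comparisons, and the fall was more frequent in M-BMDMs. All tests are edgeR's quasi-likelihood test with Benjamini-Hochberg adjustment over the 12514 genes tested, and all 238 genes passed the expression filter. Under TMM, 95 genes were lower and 55 higher with LPS in GM-TC, that is 39.9% and 23.1% of the family, where 34.2% of all genes tested were lower and 32.8% higher. In GM-noTC 106 were lower and 53 higher, against 34% and 33.6% of all genes. In M-TC 166 were lower and 42 higher, 69.7% and 17.6% of the family, against 36.4% and 37.6% of all genes. In M-noTC 154 were lower and 42 higher, against 35.9% and 36.4%. Pairs of log2 fold changes are given below for TC and then for noTC. The family medians were -0.15 and -0.21 for GM, and -0.74 and -0.61 for M. Over all genes tested the medians were -0.05, -0.03, -0.01 and -0.01. Changes of more than 2-fold past the adjusted threshold numbered 20 lower and 18 higher for GM on TC, 29 and 15 for GM on noTC, 92 and 16 for M on TC, and 79 and 15 for M on noTC. Of all genes tested, 12.7% and 13.4%, 12.6% and 13.1%, 18.5% and 17.3%, and 16.3% and 15.9% passed the same rule, in that order. Because genes were selected on their mean level, 49 members with a mean below 3 CPM in the LPS libraries reached it through the steady state libraries, and Zfp366 and Zfp558 reached it through the LPS libraries. Their LPS changes are given as a description, and the counts include them.

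Library size scaling gave a deeper fall, both for the family and for other genes. It called 176 genes lower and 21 higher in GM-TC, and 175 and 20 in GM-noTC. For M-TC it called 203 and 14, and for M-noTC 205 and 15. Of all genes tested it called 62.7%, 63.8%, 69.1% and 68.5% lower and 17.2%, 16.4%, 16.3% and 16.1% higher, in the same order. The family medians were -0.63, -0.72, -1.56 and -1.33, beside -0.53, -0.54, -0.83 and -0.73 over all genes tested. The family median lay below that of all genes under both scalings, and farther below it in M than in GM.

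**Figure D2:**
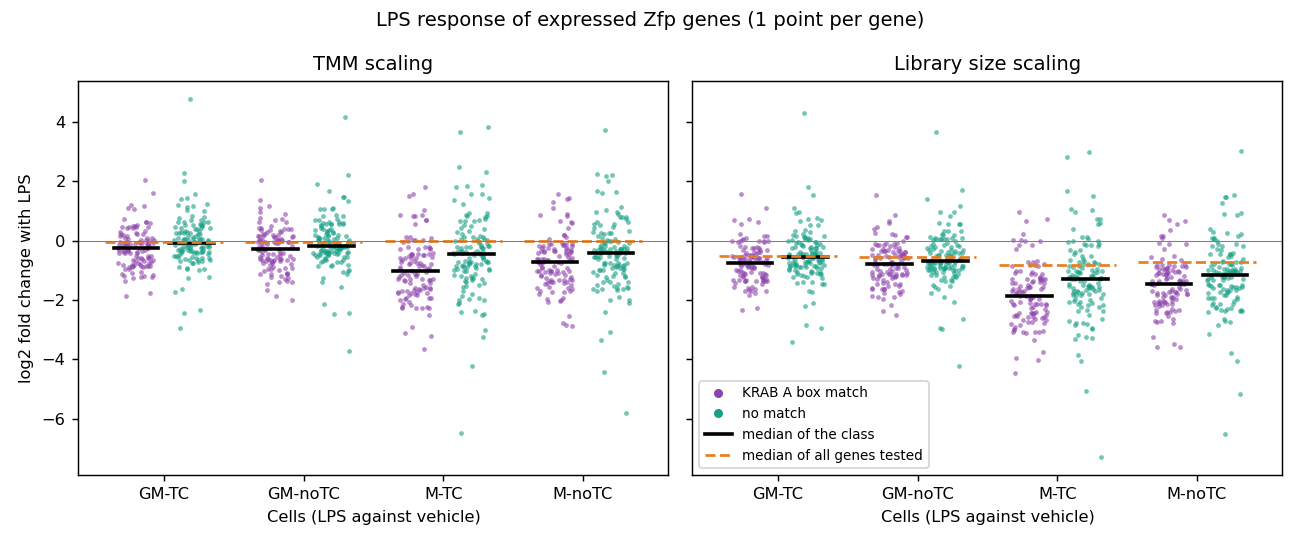
The log2 fold change with LPS of each Zfp gene with a KRAB A box match (purple) or without it (green) in the 4 kinds of cells, under TMM (left) and library size scaling (right), with the class median as a black bar and the median of all genes tested as a dashed line. In M-TC the black bars lay at -1.04 and -0.45 under TMM while the dashed line was at -0.01, and under library size scaling all bars and lines lay below 0.

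Under TMM, 79 of the 238 genes (33.2%) were lower in all 4 comparisons and 31 (13%) were higher in all 4. Of the 10024 genes tested at 3 CPM or more, 25.5% were lower in all 4 and 29.3% higher. All of these 79 genes were also lower in all 4 under library size scaling. Of the 31, 16 kept a positive sign in all 4 under library size scaling. The sign turned from higher in all 4 under TMM to lower in all 4 under library size for 5 genes, Zfp488, Zfp143, Zfp330, Zfp959 and Zfp593, the last named after its values were seen. In M-TC, for example, Zfp143, an activator bound at promoters, differed by 0.50 on the log2 scale under TMM and by -0.33 under library size. Lower in both M comparisons were 148 genes (62.2%), and 49 of them (20.6% of the family) were lower in neither GM comparison. Of the genes at 3 CPM or more, 34.1% and 5.1% were so. Lower in both GM comparisons were 88 genes (37%), and 5 of them (2.1% of the family) were lower in neither M comparison, against 32.4% and 4.22%. Called in both directions were 12 genes (5.04%, against 5.72%), and called in none were 5 (2.1%, against 6.42%), Zfp189, Zfp35, Zfp639, Zfp653 and Zfp935.

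Zfp395 had the lowest mean log2 fold change of the genes lower in all 4, at -4.72. Its TMM scaled level went from 4.29 and 3.62 CPM to 0.465 and 0.557 CPM in GM-TC upon LPS. In GM-noTC it went from 5.42 and 4.99 CPM to 0.521 and 0.274 CPM. In M-TC it went from 11.8 and 12.6 CPM to 0.148 and 0.116 CPM, and in M-noTC from 15.9 and 15.4 CPM to 0.257 and 0.299 CPM. Each LPS library thus lay below each steady state library, and the steady state levels were highest in M. The log2 fold changes were -2.92 ± 0.25 (SE) and -3.70 ± 0.25 for GM, and -5.78 ± 0.23 for M-noTC. The M-TC-LPS libraries held only 3 and 2 counts, so its fitted fold change there, -6.47, depends on the prior count. With a mean of 0.265 CPM in the LPS libraries, Zfp395 reached the level threshold only through the steady state libraries. Its LPS changes are a description.

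Zfp398 went from 13.6 and 13.2 CPM to 4.76 and 4.04 CPM in GM-TC. In M-TC it went from 13.8 and 15.5 CPM to 0.591 and 0.988 CPM. Levels were alike in GM and M at steady state, and the M libraries fell further. The log2 fold changes were -1.61 ± 0.15 and -2.14 ± 0.15 for GM, and -4.23 ± 0.21 and -4.42 ± 0.22 for M. With a mean of 1.79 CPM in the LPS libraries, Zfp398 reached the level threshold only through the steady state libraries. Its LPS changes are a description.

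Zfp652, a partner of the corepressor CBFA2T3, fell from a much higher level. It lay at 69.8 and 56.9 CPM in GM-TC, 67.8 and 58.6 CPM in GM-noTC, 79.8 and 79.5 CPM in M-TC, and 61.5 and 62.5 CPM in M-noTC. After LPS the 8 libraries lay between 6.59 and 13.2 CPM. Its log2 fold changes were close between the dishes and lower in M, at -2.34 ± 0.11 and -2.45 ± 0.11 for GM, and -3.02 ± 0.12 and -3.07 ± 0.12 for M. Values of Zfp652 were not whole in most libraries, so some of its reads were shared with another gene.

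Zfp704 was the other gene of high level among the 10. It fell from 99.7 and 68.3 CPM to 26.3 and 24.3 CPM in GM-TC and from 62.6 and 65.9 CPM to 11.9 and 12.3 CPM in M-TC (log2 fold change -1.73 ± 0.12 and -2.41 ± 0.13). The other 6 of the 10 lay below 16 CPM in every library. They were Zfp469, Zfp760, Zfp810, Zfp41, Zfp316 and Zfp157, with mean log2 fold changes of -2.98, -2.57, -2.45, -2.26, -2.11 and -2.09. In each of them the fall was deeper in both M comparisons than in both GM comparisons. Zfp41, for example, differed by -1.21 ± 0.19 in GM-TC and by -3.23 ± 0.20 in M-TC. Zfp760, Zfp810, Zfp316 and Zfp157 carried a KRAB A box match. Zfp469 had only 2 and 6 counts in GM-noTC-LPS. These 6 genes had means of 0.485 to 1.80 CPM in the LPS libraries. They reached the level threshold only through the steady state libraries, so their LPS changes are a description.

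Among the genes higher in all 4, Zfp800, a nuclear zinc finger protein, had the highest mean log2 fold change, at 3.02. It lay at 30.9 and 26.1 CPM in GM-TC, 30.1 and 28.6 CPM in GM-noTC, 32.9 and 32.7 CPM in M-TC, and 31.6 and 31.5 CPM in M-noTC. After LPS the GM libraries lay at 137 and 141 CPM on TC and 139 and 133 CPM on noTC. The M libraries lay at 438 and 492 CPM on TC and 416 and 427 CPM on noTC. The 4 kinds of cells thus started alike, and after LPS each M library stood far above each GM library. The log2 fold changes were 2.29 ± 0.073 and 2.21 ± 0.071 for GM, and 3.82 ± 0.072 and 3.74 ± 0.070 for M (adjusted p from 7.2e-22 to 1.7e-17), and under library size scaling 1.81, 1.70, 3.00 and 3.01.

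Zfp263, a SCAN domain factor, rose from 33.9 and 31.8 CPM to 98.8 and 97.6 CPM in GM-TC. In M-TC it rose from 54.9 and 53.4 CPM to 308 and 302 CPM. The log2 fold changes were 1.58 ± 0.059 and 1.66 ± 0.059 for GM, and 2.49 ± 0.056 and 2.2 ± 0.055 for M. Zfp281, a GC-rich binding factor known from pluripotent stem cells, followed the same order. It rose from 23.6 and 21.3 CPM to 53.1 and 52.9 CPM in GM-TC (1.24 ± 0.080) and from 37.3 and 32.4 CPM to 165 and 183 CPM in M-TC (2.32 ± 0.072). Both genes were also higher in all 4 under library size scaling, Zfp281 by 0.58 to 1.5 and Zfp263 by 1.10 to 1.67 on the log2 scale.

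Zfp558 showed the reverse order of the growth factors. GM-TC libraries went from 1.16 and 0.644 CPM to 22.5 and 25.5 CPM, and GM-noTC libraries from 1.47 and 1.55 CPM to 29.7 and 24.2 CPM. M-TC libraries went from 0.638 and 0.449 CPM to 1.72 and 1.45 CPM. The GM libraries thus rose far above all M libraries. The log2 fold changes were 4.77 ± 0.20 and 4.15 ± 0.17 for GM, and 1.55 ± 0.34 and 0.80 ± 0.28 for M. Under library size scaling the M differences were 0.73 and 0.08. The gene reached the level threshold only through the GM libraries after LPS, so these values are a description.

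Zfp366 (DC-SCRIPT), a regulator known from dendritic cells, rose from 1.97 and 2.21 CPM to 7.91 and 8.92 CPM in GM-TC and from 4.48 and 4.25 CPM to 17.8 and 14.8 CPM in GM-noTC. The M libraries held it at 0.150 to 0.302 CPM at steady state, or 4 to 13 counts, and at 1.3 to 2.85 CPM after LPS. The log2 fold changes were 2.0 ± 0.19 and 1.90 ± 0.15 for GM, and 3.64 ± 0.36 and 2.24 ± 0.35 for M. Zfp213, Zfp456, Zfp382, Zfp319 and Zfp513 completed the 10, with mean log2 fold changes of 1.68, 1.57, 1.53, 1.51 and 1.43. Zfp319 rose by nearly the same amount in every kind of cell, from 1.39 ± 0.087 in GM-TC to 1.63 ± 0.078 in M-noTC. Other genes overlapped 56.6% of the exon bases of Zfp213 and 60.5% of those of Zfp456, so both are uncertain, and Zfp382 and Zfp456 each missed the threshold in 1 M comparison under library size scaling.

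**Figure D3:**
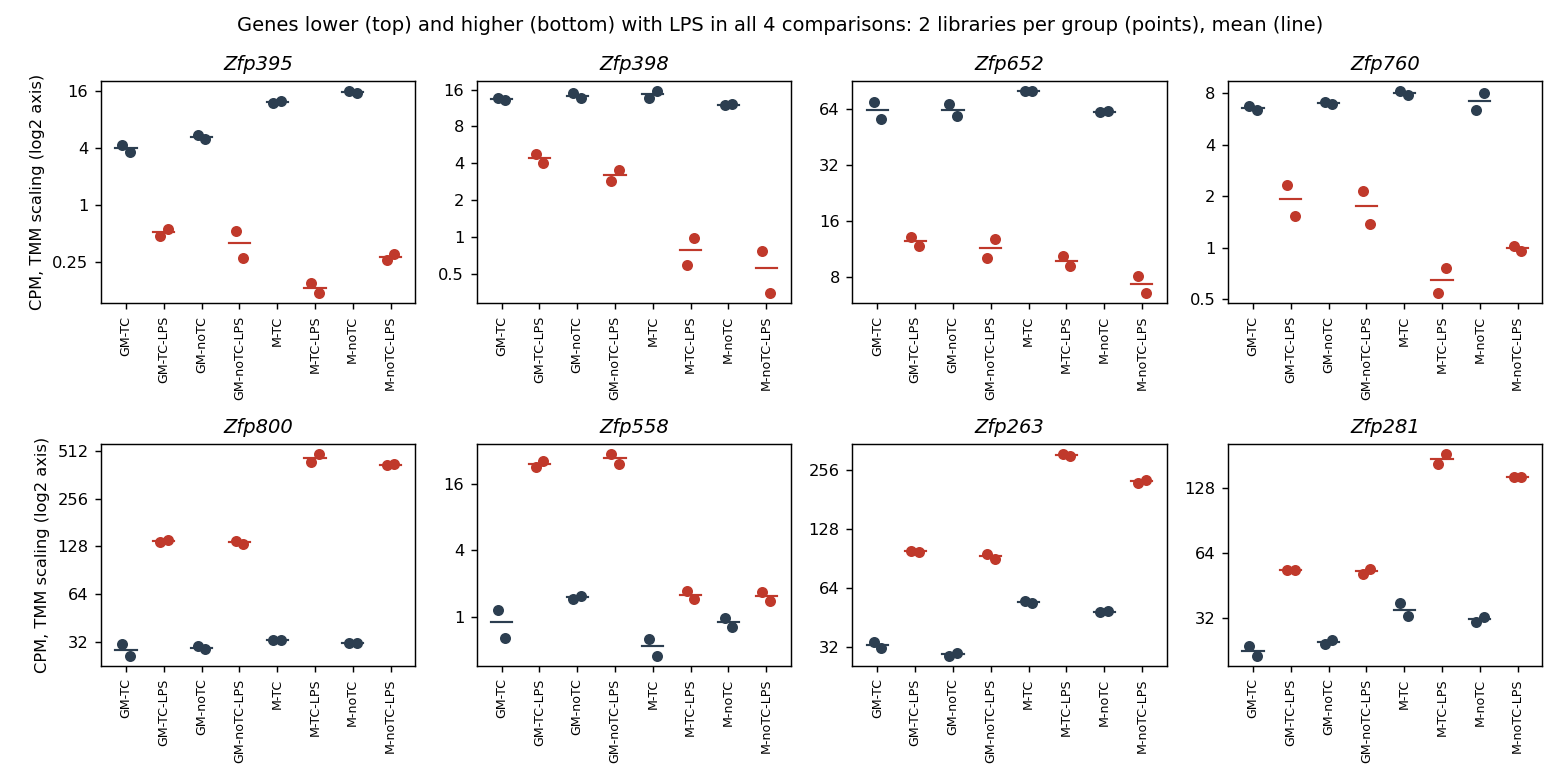
CPM (TMM scaling, log2 axis) of 4 genes lower and 4 genes higher with LPS in all 4 comparisons, with both libraries of each of the 8 groups as points and their mean as a line. Zfp395 and Zfp398 ended lowest in M after LPS, Zfp800, Zfp263 and Zfp281 ended highest there, and Zfp558 rose mainly in GM.

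Of the 10 genes with the highest mean level, 7 had log2 fold changes within 1 of 0 in all 4 comparisons under TMM. Zfp91 fell by 0.35 in GM-TC and by 0.26 in GM-noTC on the log2 scale and differed by -0.02 and 0.04 in M (adjusted p = 0.75 and 0.49). Zfp207 rose by 0.26 and 0.34 in GM and by 0.87 and 0.79 in M under TMM. Under library size scaling it was lower in GM, by -0.22 and -0.16, and within 0.07 of 0 in M. Zfp106 split the growth factors, at -0.18 and -0.20 in GM and 0.17 and 0.26 in M, and was lower in all 4 under library size scaling, from -0.71 to -0.46. Zfp703, a corepressor of the NET family, was lower in GM-TC (-0.59 ± 0.058) and higher in M-TC (1.23 ± 0.067). In M-noTC its difference was 0.27 under TMM and -0.46 under library size scaling.

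Genes with and without a KRAB A box match are set side by side here, and no difference between them was tested. In M-TC 89 of the 112 were lower and 11 higher, with a median log2 fold change of -1.04. Of the 125 without the match 76 were lower and 31 higher, with a median of -0.45. In M-noTC the counts were 77 and 13 with the match and 76 and 29 without, with medians of -0.73 and -0.42. In GM-TC they were 50 and 18 against 44 and 37, with medians of -0.26 and -0.07, and in GM-noTC 54 and 17 against 51 and 36, with medians of -0.29 and -0.17. KRAB genes were also of lower level, and 67 of them lay between 3 and 10 CPM against 48 without the match. Within 3 to 10 CPM the M-TC medians were -1.31 and -1.13 and the M-noTC medians -0.91 and -1.02, so that the order of the classes turned in M-noTC. There 68.7% with the match and 75% without it were lower. Within 10 to 30 CPM they were -0.78 and -0.36 in M-TC and -0.63 and -0.34 in M-noTC, for 40 genes with the match and 43 without.

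Medians also varied with level, finger number and position in the genome, and none of these differences was tested. Genes of 3 to 10 CPM had median log2 fold changes of -0.35 and -0.40 for GM, and -1.25 and -0.96 for M. Genes of 30 CPM or more had medians of 0.04, -0.04, -0.13 and -0.14, with 17 higher and 10 lower in GM-TC. The mean level includes the LPS libraries, so a gene that rose counts as higher for that reason too. The 87 Zfp genes tested below 3 CPM had medians of -0.45, -0.52, -1.59 and -1.48. The 27 Zbtb genes at 3 CPM or more, zinc finger genes with a BTB domain, had medians of -0.09, -0.01, -0.45 and -0.51. Genes with 11 or more fingers had M-TC and M-noTC medians of -0.87 and -0.75, and genes with at most 5 fingers had -0.29 and -0.27. Genes next to another Zfp gene had medians of -0.86 and -0.75 in M, and genes standing alone had -0.46 and -0.39. The 165 genes with whole values had medians of -0.12 and -0.20 for GM, and -0.71 and -0.61 for M. The 35 genes with values mostly not whole had medians of -0.35 and -0.29 for GM, and -0.76 and -0.51 for M. The part of shared reads was not tested. The level, finger and neighbour classes were chosen after the fits had been seen.

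Lists by known role are given by their counts, and no difference between the lists was tested. Of all genes tested, 36.4% were lower and 37.6% higher in M-TC, and 34.2% and 32.8% in GM-TC. Of 44 listed KRAB genes, 35 were lower and 1 was higher in M-TC, with a median of -0.85. Of 28 genes listed for chromatin and transcription, 13 were lower and 9 higher in M-TC (median -0.18), and 7 lower and 12 higher in GM-TC (median 0.19). In that list Zfp131, a BTB factor, rose in all 4, by 1.02, 1.06, 1.43 and 0.96. Zfp516, a partner of CtBP and PRDM16, rose by 0.83, 0.85, 0.79 and 0.62 under TMM, and under library size scaling its M differences were -0.03 and -0.11 (adjusted p = 0.72 and 0.24). Zfp512 fell by 0.94, 0.97, 1.32 and 1.51. Zfp644, a partner of the methyltransferase G9a, differed by -0.06 and 0.01 in GM (adjusted p = 0.52 and 0.92) and fell by 0.77 and 0.76 in M, while under library size scaling it was lower in all 4. Of 11 genes listed for RNA and ribosomes, 4 were lower and 3 higher in GM-TC, while M-TC had 5 lower and 3 higher. Zfp598, which senses collided ribosomes, rose by 0.80 and 1.07 in GM and differed by 0.03 and 0.17 in M (adjusted p = 0.75 and 0.051), where it was lower under library size scaling, by -0.80 and -0.56. Zfp638, which works with the HUSH complex, fell by 0.41, 0.32, 0.39 and 0.38.

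The machinery that KRAB proteins recruit had medians nearer to 0 than those of the family, a difference that was not tested. Of 32 such genes tested, 12 were lower and 9 higher for GM on TC, 13 and 10 for GM on noTC, 15 and 11 for M on TC, and 18 and 9 for M on noTC, with medians of -0.11, -0.06, -0.14 and -0.27. Of all genes tested, 34.2%, 34%, 36.4% and 35.9% were lower and 32.8%, 33.6%, 37.6% and 36.4% higher, in the same order. Under library size scaling the counts were 27 and 4, 25 and 4, 28 and 4, and 28 and 4. That scaling called 62.7%, 63.8%, 69.1% and 68.5% of all genes tested lower and 17.2%, 16.4%, 16.3% and 16.1% higher. Among the genes past the threshold in all 4, the 6 of highest mean level were Chd4, Daxx, Dnmt3a, Morc3, Sumo2 and Dnmt1. Daxx, a histone H3.3 chaperone, rose by 3.93, 3.64, 4.2 and 3.85, and Morc3, a nuclear body ATPase, by 1.39, 1.35, 1.44 and 1.26. Dnmt1, the maintenance DNA methyltransferase, fell by 1.88, 1.81, 1.86 and 1.84, and Dnmt3a, a de novo methyltransferase, by 1.09, 1.10, 0.55 and 0.74. Chd4 and Sumo2 rose under TMM, by 0.37 to 0.59 and by 0.32 to 0.57, but under library size scaling Sumo2 was negative in all 4 and Chd4 was negative in M. Trim28 (KAP1) and Setdb1, the H3K9 methyltransferase it brings, were chosen for their role after the values were seen. Trim28 fell by 0.30, 0.37, 0.15 and 0.36, and Setdb1 by 1.0, 0.95, 1.2 and 1.07.

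RefSeq promoter windows (GRCm38.p6) were matched for 198 of the 238 genes, in 242 windows of 250 bases before a start. The windows of the family and all 32851 windows were searched for 10 short motifs, some of which had nearly the same share in both. All windows were not limited to expressed genes, while the family was selected on level. The GC box (GGGCGG on either strand) varied most with the LPS response. It was in 32.7% of all windows, 43.0% of the family's, 28.7% of those of KRAB genes and 55.9% of those of the others. It was in 65.7% of the 35 windows of genes higher with LPS in all 4 and in 30.9% of the 81 windows of genes lower in all 4. The median GC content was 57.6% and 53.2% in these, and 52.4% over all windows. The ETS motif CCGGAAGT was in 10.3% of the family's windows against 2.88% of all, the NRF1 motif in 7.44% against 3.74%, and the ZNF143 motif in 2.48% against 0.271%. TATAAA was in 5.79% against 12.4%, and in none of the 35 windows of genes higher in all 4. The motifs NFkB (3.31% against 3.90%), ISRE (1.65% against 2.98%), TGACGTCA (3.72% against 1.55%), CACGTG (6.20% against 6.02%) and AAGATGGC (1.24% against 1.56%) completed the search. These motifs, and the 4 windows printed here, were chosen after the LPS results were known, and a match is a description of the letters only.

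The windows of 2 genes higher and 2 genes lower with LPS are shown because they span the range from several GC boxes to none. Capitals mark the GC box, ETS and NRF1 letters on either strand, and each sequence is the plus strand of GRCm38.p6, which is the strand of the gene. Zfp263 lay at chr16:3743849-3744098, with 3 GC boxes and 1 ETS match. Zfp281 lay at chr1:136624651-136624900, with 4 GC boxes and 1 NRF1 match. Zfp760 lay at chr17:21707491-21707740, with 1 GC box. Zfp398 lay at chr6:47835411-47835660, with none of the motifs in capitals.
Zfp263: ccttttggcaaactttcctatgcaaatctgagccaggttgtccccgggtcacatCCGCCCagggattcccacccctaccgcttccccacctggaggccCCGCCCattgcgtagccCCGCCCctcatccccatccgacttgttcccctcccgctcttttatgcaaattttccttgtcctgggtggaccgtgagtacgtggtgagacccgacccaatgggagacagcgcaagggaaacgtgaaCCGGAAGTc
Zfp281: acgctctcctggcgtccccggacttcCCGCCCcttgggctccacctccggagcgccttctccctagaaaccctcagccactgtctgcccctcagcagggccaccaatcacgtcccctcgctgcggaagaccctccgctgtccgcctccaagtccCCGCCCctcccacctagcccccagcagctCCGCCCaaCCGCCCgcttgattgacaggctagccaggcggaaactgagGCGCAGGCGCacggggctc
Zfp760: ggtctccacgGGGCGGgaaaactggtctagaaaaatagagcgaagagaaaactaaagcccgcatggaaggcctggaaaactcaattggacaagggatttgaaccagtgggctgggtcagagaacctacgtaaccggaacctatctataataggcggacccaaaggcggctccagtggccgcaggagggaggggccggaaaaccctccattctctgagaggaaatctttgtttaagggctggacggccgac
Zfp398: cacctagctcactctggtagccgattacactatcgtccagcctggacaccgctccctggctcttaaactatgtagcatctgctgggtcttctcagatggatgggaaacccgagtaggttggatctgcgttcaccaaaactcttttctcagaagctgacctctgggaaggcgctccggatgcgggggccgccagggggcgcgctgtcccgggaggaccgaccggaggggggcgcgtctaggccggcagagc

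Whether the LPS response differed between the growth factors was tested directly, as the GM-CSF response minus the M-CSF response. On TC dishes 131 of the 238 genes had a lower and 16 a higher response in M, 61.8% of the family against 41.1% of all genes tested. On noTC dishes 104 had a lower and 18 a higher response in M, 51.3% against 36.2%. The first 2 counts share no library with the second 2. A lower M response on both dishes was found for 87 genes. This overlap was not counted over all genes tested, so it is a description. By sign alone, the M fold change lay below the GM fold change in 190 genes on TC and 191 on noTC. The median difference was 0.57 on TC and 0.42 on noTC, against -0.04 and -0.02 over all genes tested. Of the genes with a lower M response on TC, 69 carried a KRAB A box match and 61 did not, and on noTC 47 did and 57 did not. The family held 112 genes with the match and 125 without it. The 238 genes include 49 with a mean below 3 CPM in the LPS libraries, 11 with such a mean in GM and 3 in M. These reached the level threshold through the other libraries, and the counts above include them as a description.

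The largest positive differences belonged to Zfp395, Zfp558 and Zfp398 on both dishes. For Zfp398, whose values are given above, the difference was 2.62 ± 0.29 on TC and 2.28 ± 0.32 on noTC. Zfp395 and Zfp398 reached the level threshold only through the steady state libraries, with means of 0.265 and 1.79 CPM in the LPS libraries. The M libraries of Zfp398 held 7 to 17 counts after LPS. For Zfp558 the difference was 3.22 ± 0.46 and 3.35 ± 0.35. The differences of Zfp395, Zfp398 and Zfp558 are a description. Zfp398 fell further in M, and Zfp558 rose further in GM. The largest negative differences on TC belonged to Zfp703, Zfp366 and Zfp800, and on noTC to Zfp800, Zfp281 and Zfp324. For Zfp800 the difference was -1.53 ± 0.10 on TC and -1.53 ± 0.098 on noTC (adjusted p = 4.7e-11 and 3.8e-11).

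**Figure D4:**
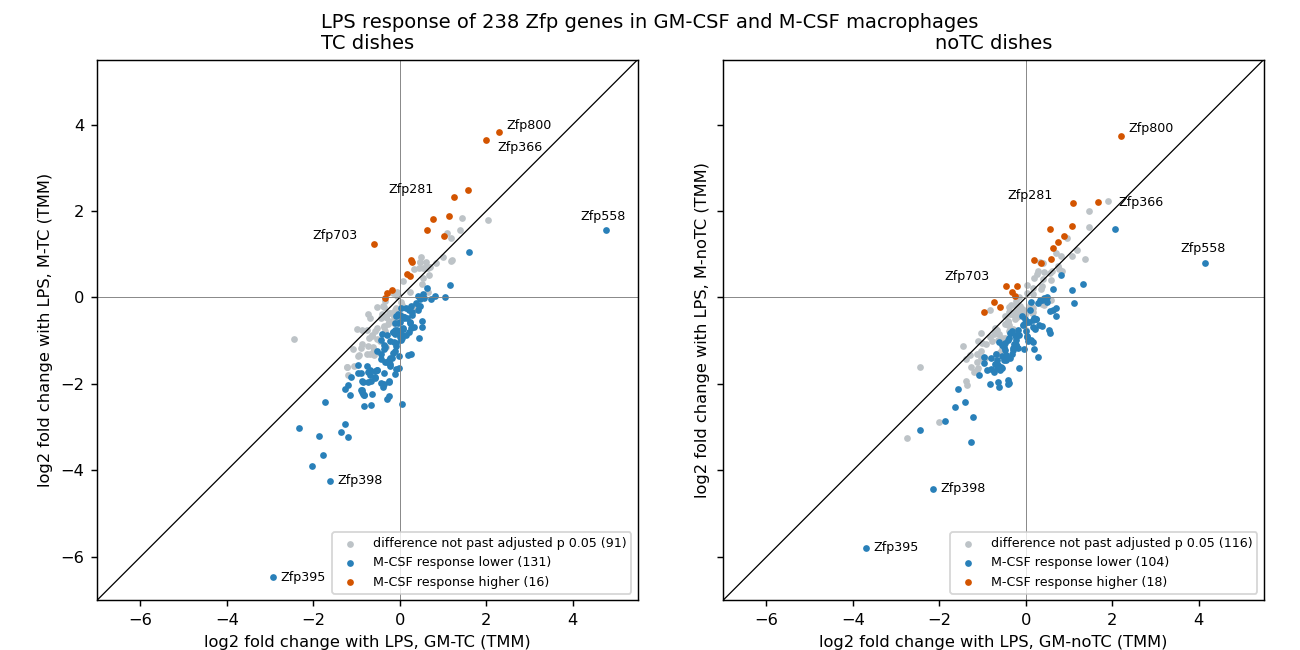
Log2 fold change with LPS (TMM scaling) in GM cells (x axis) and M cells (y axis) for the 238 Zfp genes on TC (left) and noTC dishes (right), 1 point per gene, with the line of equal response. Blue points lie below the line, 131 on TC and 104 on noTC, and mark genes whose response was lower in M past the adjusted threshold, and orange points mark 16 and 18 genes with a higher response in M.

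At steady state the share of the family called between the growth factors depended on the scaling. Under TMM, GM against M on TC gave 89 genes lower and 32 higher in GM, 50.8% of the family against 61.5% of all genes tested. On noTC it gave 64 lower and 42 higher, 44.5% against 62.1%. Under library size scaling the split was 164 lower and 11 higher on TC (73.5% of the family) and 147 lower and 21 higher on noTC (70.6%), where 50.8% and 52.1% of all genes were lower and 19.6% and 19.7% higher. After LPS the direction turned, with 33 lower and 130 higher in GM on TC and 30 lower and 126 higher on noTC, 68.5% and 65.5% of the family against 66.8% and 66.1%. The median difference moved from -0.15 and -0.07 before LPS to 0.44 and 0.39 after it, on TC and noTC. On TC 35 genes (14.7%) were higher in M before LPS and higher in GM after it, against 3.5% of the 10024 genes at 3 CPM or more. On noTC 17 genes (7.14%) were, against 2.89%.

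Higher in GM in all 4 growth factor comparisons were 23 genes (9.66%) and lower in all 4 were 13 (5.46%), against 17.6% and 18.9% of the genes at 3 CPM or more. Under library size scaling the split turned, to 9 higher and 24 lower (3.78% and 10.1%). Of the genes at 3 CPM or more, 12.1% were then higher and 27.2% lower, so their split also moved toward lower in GM. Zfp532 stood farthest apart. Its TMM scaled level was 11.1 and 11 CPM in GM-TC and 14.1 and 14.3 CPM in GM-noTC, against 0.279 and 0.150 CPM in M-TC and 0.943 and 0.395 CPM in M-noTC. After LPS it lay at 1.35 to 3.06 CPM in GM and at 0 to 0.232 CPM in M, where the libraries held 0 to 4 counts. The steady state difference on noTC, where M libraries held 28 and 17 counts, was 4.49 ± 0.28 on the log2 scale. Zfp532, Zfp366 and Zfp558 reached the level threshold only through the GM libraries, with means below 3 CPM in M, so their growth factor differences are a description. Likewise 11 members with a mean below 3 CPM in GM reached it through the M libraries. Antisense genes overlapped 32.9% of the exon bases of Zfp532.

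Zfp703 lay at 140 and 140 CPM in GM-TC and 135 and 136 CPM in GM-noTC, against 26.1 and 23.8 CPM in M-TC and 24.1 and 25.1 CPM in M-noTC. It fell with LPS to 92.0 to 104 CPM in GM and rose in M-TC-LPS to 58.4 and 58.8 CPM, so the gap narrowed without closing. The difference was 2.49 ± 0.064 on TC before LPS and 0.66 ± 0.062 after it. Zfp366 was higher in GM by 3.96 ± 0.26 on noTC before LPS and by 3.62 ± 0.19 after it. Zfp568, a KRAB factor known for silencing placental Igf2, lay at 25 to 26.5 CPM in GM at steady state and at 53 to 55.4 CPM after LPS. In M it lay between 8.93 and 11.7 CPM in all 8 libraries under TMM scaling. Zfp503, a relative of Zfp703, was higher in GM by 1.04 to 1.73 over the 4 comparisons.

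Among the genes lower in GM, Zfp710 differed most evenly. Under TMM it lay at 91.1 to 114 CPM in all GM libraries and at 178 to 201 CPM in all M libraries, before and after LPS. Under library size scaling the mean of Zfp710 was 190 CPM in the steady state libraries and 114 CPM in the LPS libraries. The differences were -0.99 ± 0.056 and -0.79 ± 0.055 before LPS and -1.09 ± 0.057 and -0.93 ± 0.056 after it, on TC and noTC. Zfp263 and Zfp281 were lower in GM by 0.72 and 0.64 on TC before LPS, and their differences were -1.64 and -1.72 after it. Zfp319 and Zfp324 completed the list, with differences of -0.70 and -0.53 on TC before LPS. These comparisons share libraries with the LPS comparisons of the same cells.

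The dish changed few Zfp genes. In GM at steady state 2 were lower and 5 higher on noTC, 2.94% of the family against 7.54% of all genes tested, and under library size scaling 1 was lower and 5 higher, against 2.49% and 4.83% of all genes. In M at steady state 25 were lower and 8 higher, 13.9% against 27.2%. In GM after LPS 1 was lower and 2 higher, 1.26% against 2.8%. In M after LPS 22 were lower and 13 higher, 14.7% against 23.3%, and under library size scaling 9 were lower and 28 higher, against 7.03% and 16.8% of all genes, so that this split turned with the scaling. In all, 168 of the 238 genes (70.6%) changed in no dish comparison, against 52.4% of the genes at 3 CPM or more. The family and the other genes were not matched for level, and 116 of the 238 lay between 3 and 10 CPM, where fewer counts make a call harder. At steady state 1 gene (0.42%), Zfp217, changed in both GM and M, against 4.91%, and 4 genes (1.68%) changed in M both before and after LPS, against 14.3%. The counts depended on the fit and on single libraries. Fits of only the libraries compared gave 1 change in GM and 67 in M at steady state. Without GM-TC replicate 1, 27 genes changed in GM at steady state, and without GM-noTC replicate 1 or 2 it was 4 or 2. In M at steady state 16 changed without M-TC replicate 1 and 16 without M-noTC replicate 1. In GM after LPS 1 changed without GM-TC-LPS replicate 1, without GM-TC-LPS replicate 2 or without GM-noTC-LPS replicate 2. In M after LPS 20 changed without M-TC-LPS replicate 1, 23 without M-TC-LPS replicate 2 and 21 without M-noTC-LPS replicate 1.

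Zfp366 was the gene with the largest dish difference in GM. It lay at 1.97 and 2.21 CPM in GM-TC and 4.48 and 4.25 CPM in GM-noTC, a difference of 1.05 ± 0.20 (adjusted p = 0.0013). After LPS it lay at 7.91 and 8.92 CPM in GM-TC-LPS and 17.8 and 14.8 CPM in GM-noTC-LPS, a difference of 0.95 ± 0.14 (adjusted p = 0.00032). In M after LPS the order was the reverse, with 2.85 and 2.03 CPM in M-TC-LPS and 1.33 and 1.3 CPM in M-noTC-LPS, a difference of -0.91 ± 0.25 (adjusted p = 0.012). The libraries of the groups did not overlap in any of these comparisons. Zfp217, a partner of the CtBP and CoREST corepressors, was higher on noTC in GM before LPS (0.29 ± 0.074) and after it (0.27 ± 0.071), the latter with an adjusted p of 0.071 under library size scaling. In GM at steady state Zfp469 was lower on noTC by 0.92 and Zfp68 by 0.25, with Zfp292 higher by 0.39 and Zfp318 by 0.35. Zfp945 was lower on noTC in GM after LPS, by 0.58.

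In M at steady state Zfp462 was higher on noTC, by 1.10 ± 0.26, though the M-TC libraries stood at 4.55 and 2.21 CPM and the M-noTC libraries at 7.45 and 7.02 CPM. Zfp367 lay at 27.8 and 26.9 CPM in M-TC and 40.9 and 38.8 CPM in M-noTC, a difference of 0.54 ± 0.087 (adjusted p = 5.6e-05). Zfp382 was higher on noTC by 0.68. Zfp704 lay at 62.6 and 65.9 CPM in M-TC and 41.4 and 38.8 CPM in M-noTC, a difference of -0.68 ± 0.11 (adjusted p = 3.7e-05). Zfp455 and Zfp758, both with a KRAB A box match, were lower by 0.52 and 0.44.

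After LPS in M, Zfp961, a KRAB factor of endogenous retrovirus silencing, was the gene with the largest difference. It lay at 2.61 and 1.98 CPM in M-TC-LPS and 7.91 and 6.29 CPM in M-noTC-LPS, a difference of 1.61 ± 0.19 (adjusted p = 2.3e-06). At steady state it lay at 9.33 and 8.34 CPM in M-TC and 8.86 and 9.13 CPM in M-noTC, which overlap. Zfp703 lay at 58.4 and 58.8 CPM in M-TC-LPS and 29.3 and 30.1 CPM in M-noTC-LPS, a difference of -0.98 ± 0.068 (adjusted p = 1.0e-09). Its M-TC and M-noTC libraries had overlapped before LPS. Zfp72 and Zfp759 were higher on noTC after LPS by 1.0 and 0.86, and Zfp821 was lower by 0.74.

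**Figure D5:**
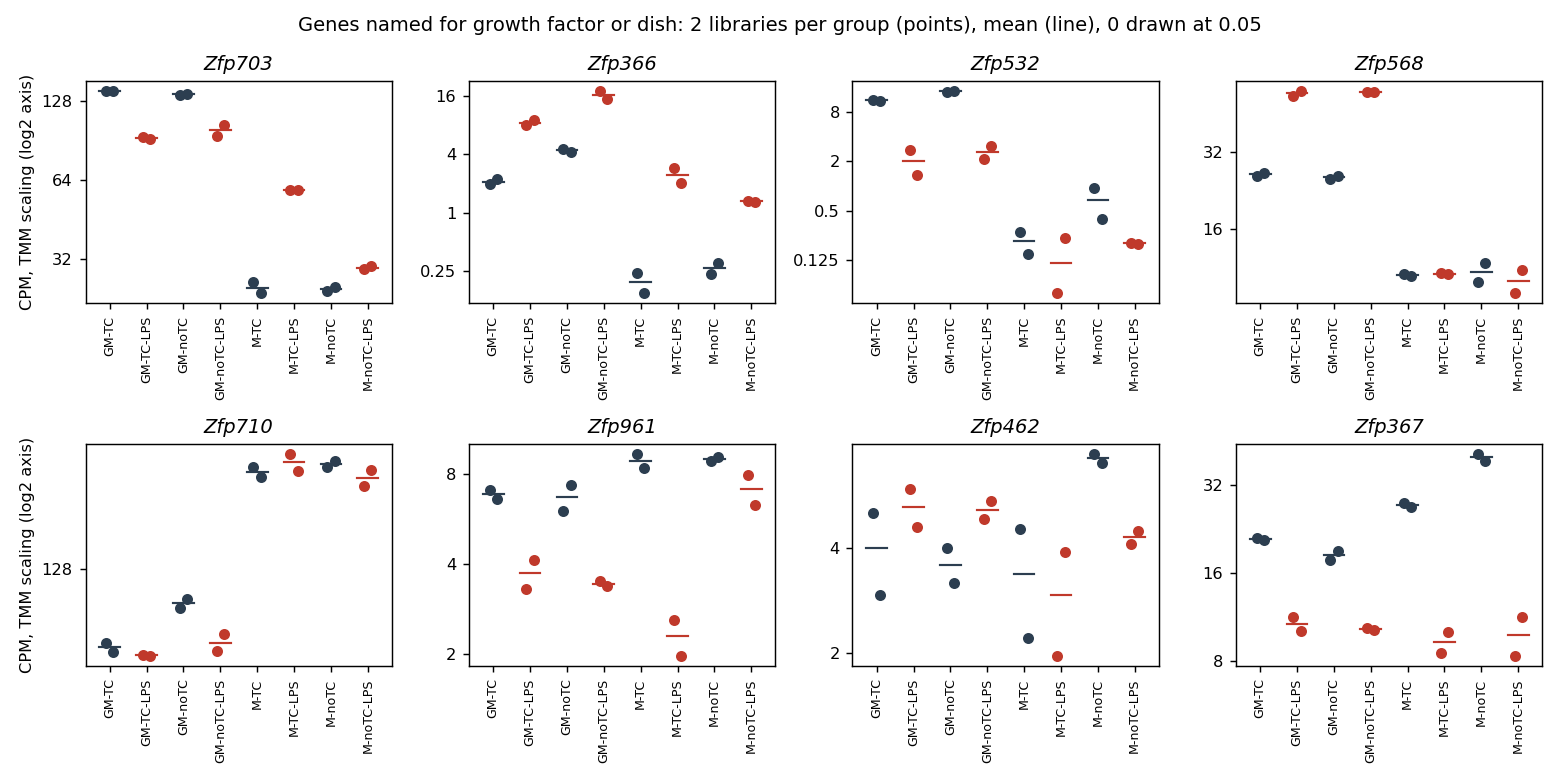
CPM (TMM scaling, log2 axis) of 8 genes named for the growth factor or the dish, with both libraries of each of the 8 groups as points and their mean as a line (a level of 0 is drawn at 0.05). Zfp703, Zfp366, Zfp532 and Zfp568 stood higher in GM and Zfp710 in M, and Zfp961 and Zfp703 separated M-TC-LPS from M-noTC-LPS but not M-TC from M-noTC.

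Whether the LPS response depended on the dish was tested as the noTC response minus the TC response. In GM no member passed with edgeR or with DESeq2, where 0.783% of all genes tested passed with edgeR, and 23 members had an unadjusted p under 0.05. In M 10 had a lower and 14 a higher response on noTC, 10.1% of the family against 10.6% of all genes, and under library size scaling 5 and 23, against 3.88% and 6.11%. Without GM-TC replicate 1 the GM count was 6 and without GM-TC replicate 2 it was 1. The M count was 10 without M-TC replicate 1, 14 without M-TC replicate 2, 9 without M-TC-LPS replicate 1, 10 without M-noTC replicate 1 and 12 without M-noTC replicate 2. The difference was 1.59 ± 0.24 for Zfp961 and -0.96 ± 0.096 for Zfp703 (adjusted p = 0.00011 and 6.5e-07).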

How the data were processed

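RNA-seq of 16 libraries of mouse BMDMs, 2 for each of 8 groups, was used. The authors deposited expected counts per gene, estimated from the reads and not normalized. The submitters' processing notes name fastp 0.18.0, Bowtie2 2.2.8, HISAT2, StringTie 1.3.1, RSEM, DESeq2 and edgeR, and the genome build, annotation and strand setting are not given in the sources used here. Reads shared between related genes were split, so 6.56% to 8.19% of genes held values that were not whole in a library.

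Expected counts were rounded to whole numbers. Of 16756 genes with a count, 12514 passed the expression filter of edgeR (filterByExpr by group). CPM was computed with library size and with TMM scaling. Differences were tested with edgeR 4.0.16 (limma 3.58.1, R 4.3.3) by the quasi-likelihood test over all 16 libraries with a mean per group, TMM scaling and Benjamini-Hochberg adjustment over all genes tested. The threshold was an adjusted p of 0.05, the common dispersion was 0.00226 (a coefficient of variation of 4.75%), and the SE is the log2 fold change divided by the root of F. The 12 comparisons were LPS, dish and growth factor, 4 of each, and 4 further tests compared LPS responses. The fit was tested on simulated data in which few genes changed, as many up as down. Such data cannot tell which scaling fits the LPS comparisons, where many genes changed. Alternatives were library size scaling, DESeq2 size factors, no filter, DESeq2 1.42.0, only the libraries compared, a replicate block, a fold above 2 with an unadjusted p, and leaving out each library.

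The members, lists and tests were chosen with earlier results of these data known. Genes named are the 10 of highest level, those next to the level threshold, the 10 lowest and 10 highest mean changes among genes called the same way in all 4 LPS comparisons, up to 5 for the growth factor, up to 3 per direction for each dish comparison and each difference of responses, examples from the role lists, and genes whose sign turned with the scaling. Fingers were counted as C-x(2 or 4)-C-x(12)-H-x(3 to 5)-H and the KRAB A box as LY or LF, 1 residue, D, E, N or G, then VM, in translated GENCODE M21 coding sequence, since no protein table was used. Promoter windows came from RefSeq GRCm38.p6.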

Additional observations from a re-analysis of the deposited data

Results flagged for a closer look

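The LPS response differed between the growth factors, by a test of the difference itself, for 147 of the 238 Zfp genes on TC (61.8%, against 41.1% of all genes tested) and for 122 on noTC (51.3%, against 36.2%). Between the dishes it differed for 24 in M, 10.1% against 10.6% of all genes tested. As the GM response minus the M response on TC, the log2 difference was -1.83 for Zfp703, -1.64 for Zfp366 and -1.53 for Zfp800, and 3.54 for Zfp395, 3.22 for Zfp558 and 2.62 for Zfp398. On noTC it was -1.53 for Zfp800, -1.10 for Zfp281 and -1.03 for Zfp324, and 3.35 for Zfp558, 2.28 for Zfp398 and 2.08 for Zfp395. As the noTC response minus the TC response in M, it was -1.0 for Zfp821, -0.96 for Zfp703 and -0.90 for Zfp382, and 1.59 for Zfp961, 1.0 for Zfp759 and 0.94 for Zfp975. Zfp975 held values that were not whole in most libraries, and Zfp395 had 3 and 2 counts in M-TC-LPS. Zfp366 and Zfp558 reached the level threshold only through the GM libraries, and Zfp395 only through the M libraries, so their differences between growth factors are a description. Zfp395, Zfp398 and Zfp975 had means below 3 CPM in the LPS libraries, so their differences of the LPS response are a description too. The counts of 147 and 122 include members that reached the threshold only through the steady state libraries or through the libraries of 1 growth factor.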

How the results depend on the processing

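Library size scaling moved the counts of Zfp genes lower with LPS to 176 in GM-TC and 175 in GM-noTC, the counts higher to 21, 20, 14 and 15 for GM on TC, GM on noTC, M on TC and M on noTC, the medians to -0.63, -0.72, -1.56 and -1.33, and the growth factor count on noTC to 168. Calling by a fold above 2 with an unadjusted p gave 20, 29, 92 and 79 lower and 18, 15, 16 and 15 higher with LPS, 1, 2, 1 and 1 dish changes in GM, M, GM after LPS and M after LPS, 11, 15, 57 and 40 growth factor changes on TC, noTC, TC after LPS and noTC after LPS, and differences of the LPS response for 68 and 32 genes between growth factors on TC and noTC and for 3 between dishes in M. Fits of only the libraries compared gave 1 dish change in GM and 67 in M. Without the expression filter there were 12 dish changes in GM and 1 difference between dishes in the GM response, and DESeq2 gave 11 such differences in M. Leaving out 1 library, which assumes that the lone library of a group varies like the others, gave 77 to 95, 84 to 93, 151 to 156 and 136 to 153 genes lower and 47 to 55, 47 to 51, 39 to 41 and 38 to 42 higher with LPS. It gave 2 to 27, 16 to 22, 1 to 2 and 20 to 25 dish changes, 94 to 118, 77 to 87, 144 to 151 and 129 to 140 growth factor changes, and 126 to 156, 102 to 114, 0 to 6 and 9 to 18 differences of the LPS response. The causes were not tested. Same-numbered libraries did not deviate together (r from -0.064 to 0.036), and the replicate block moved no count by more than 1.5 times, with 93 genes lower in GM-TC and 166 in M-TC. Genes near 3 CPM rest on few counts after LPS.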
